A study of Arabidopsis thaliana with 12 samples.

Results

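Gene expression at 24 h of induction was compared with that at 10 h in the root tips of Arabidopsis thaliana seedlings that make extra miR165, on 6 of the 12 arrays of a time course. The 6 arrays, 3 for each time, were taken by their sample titles. The plants carried pCRE1_XVE::MIR165A in the Col-0 background, a construct in which ß-estradiol switches on the MIR165A gene in the cells where the stele-specific CRE1 promoter is active. Both groups carried the transgene and both were on 5 µM ß-estradiol, for 10 h or for 24 h, so that the time on the inducer was the difference between them. The other 6 arrays are 3 of seedlings on mock plates with ethanol and no estradiol, called 0 h, and 3 of seedlings at 6 h. They are given below as the levels from which the 10 h values had come. Each array holds RNA from about 200 hand-dissected primary root tips of 0.5 mm, taken at 4 days post germination, with starts staggered so that ages at collection were within 4.5 h of each other. No plants without the transgene on estradiol are among these arrays, and a light and dark cycle ran during growth, so that time on estradiol, hour of transfer and any effect of estradiol itself cannot be told apart.

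MicroRNA165 is a small RNA that directs the cleavage of messenger RNAs of the class III homeodomain leucine zipper (HD-ZIP III) transcription factors, of which PHABULOSA and PHAVOLUTA (PHV) act in the root stele. In the root, miR165 and its close relative miR166 are made in the endodermis and move inward, so that HD-ZIP III levels are highest in the centre of the stele, where they set xylem cell type and restrain meristem activity. A tip of this length holds the root cap, the stem cell niche and dividing cells of every tissue, and cells that elongate or form root hairs lie mostly further up. Sequences of miR165 and of its target sites were not used here.

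Values are RMA log2 signals, on which a difference of 1 is a doubling of the signal, and differences are 24 h minus 10 h. Of the 22746 probe sets tested, 407 (1.79%) passed a limma adjusted p of 0.05, 165 of them higher at 24 h (0.725%) and 242 lower (1.06%). By unadjusted p under 0.05 there were 3535. With each array centred on its own median the split was 218 higher and 193 lower, so that the excess of falls depended on the scaling. The ranges of the 3 arrays at each time did not overlap for any of the 407, beside 4692 of all probe sets (20.6%) that do not overlap. The falls were the larger changes: 44 of them were of at least 1 on the log2 scale, against 11 of the rises, 55 in all (0.242% of the probe sets tested). The median fall was 0.65 below and the median rise 0.49 above the 10 h level. Single arrays weighed on the number of calls. Leaving out replicates 1, 2 and 3 of the 10 h group in turn gave 129, 166 and 93 calls, and leaving out those of the 24 h group gave 235, 146 and 799, in the same order.

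Rises and falls lay at different signal levels. The probe sets that rose had a median signal of 8.17 over the 12 arrays and those that fell one of 6.36, beside 6.09 for all. Among the 5687 probe sets with a mean signal of 8.11 or more 83 rose and 49 fell, and among the 5686 between 3.90 and 6.09 there were 30 rises and 90 falls. The median difference over all probe sets was 0.00 in the first of these classes and -0.01 in the second. The plot of difference against signal shows the falls spread over dim and middling signals and a dense group of small rises near a signal of 9.

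**Figure D1:**
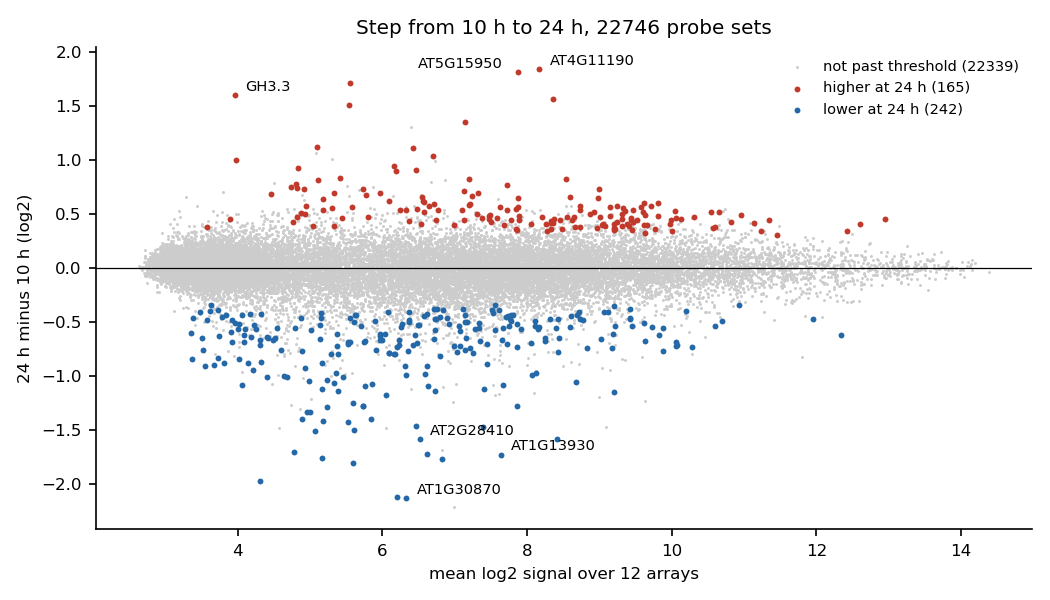
Difference between 24 h and 10 h (vertical axis, log2) against the mean log2 signal over 12 arrays (horizontal axis), 1 point per probe set. The 165 red points rose and the 242 blue points fell past a limma adjusted p of 0.05; the largest falls reach -2.13 and the largest rise 1.85.

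The 3 arrays at 24 h were less alike than those at 10 h. The median SD of a probe set was 0.122 at 24 h and 0.0952 at 10 h. Over all probe sets, 24 h replicate 3 had a Pearson correlation of 0.99315 with 24 h replicate 1 and 0.99488 with 24 h replicate 2. Its correlations with the 10 h arrays were 0.99352 to 0.99423, higher than that with 24 h replicate 1. In the falling probe sets 24 h replicate 3 was the highest of the 3 arrays in 41.3% of cases, beside 32.6% over all probe sets. In the rising ones it was the lowest in 58.8% of cases, beside 45.5% over all, and 24 h replicate 1 was the highest in 55.2%, beside 34.99% over all. The spiked-in hybridisation controls read 9.38 ± 0.06 (SD, n = 3) at 10 h and 9.66 ± 0.13 (SD, n = 3) at 24 h, without overlap (exact permutation p = 0.1, two-sided, the smallest that 3 against 3 arrays allow). Differences between 3' and 5' probes, a sign of RNA quality, had log2 means of 4.77 at 10 h and 4.64 at 24 h for actin (exact permutation p = 0.6). For GAPDH they were 0.56 and 0.54 (exact permutation p = 0.8) and for ubiquitin 1.49 and 1.47 (exact permutation p = 0.6). The 3' probes thus read higher than the 5' probes at both times, most of all for actin. The part of the spike difference in the results was not tested.

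Of the 407 probe sets called, 210 are assigned to a single gene in the annotation, and these stand for 208 of 13350 genes with a probe set of their own (1.56%), 85 higher (0.637%) and 123 lower (0.921%). The annotation gives symbols for some genes and only locus numbers for others. Where a family is given below for a locus number, it is general background on the Arabidopsis genome and not from the annotation used here. The plot of the 15 largest falls and the 15 largest rises past the threshold, among genes whose 10 h and 24 h arrays do not overlap, shows 1 point per array, with the mock arrays beside them.

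**Figure D2:**
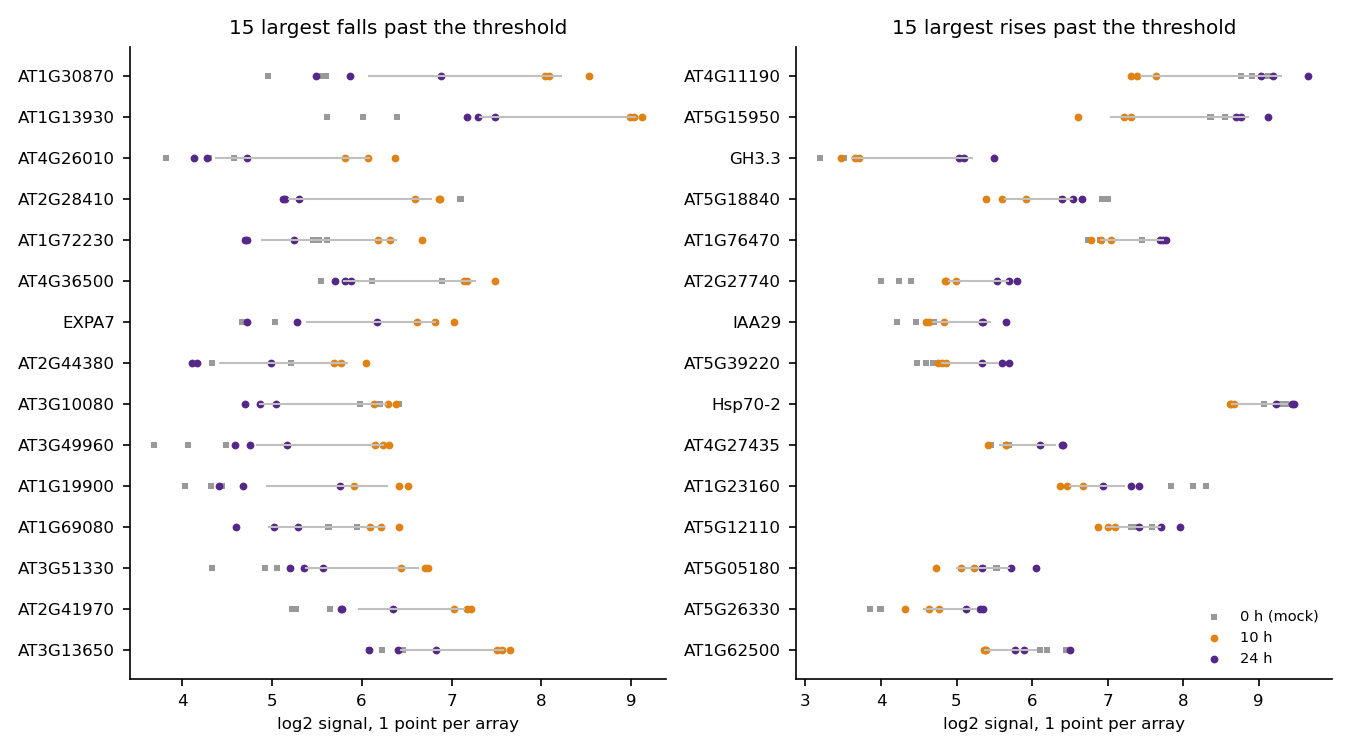
Log2 signal (horizontal axis) of the 15 genes with the largest falls (left) and the 15 with the largest rises (right) past a limma adjusted p of 0.05 and without overlap, 1 point per array at 0 h (grey squares), 10 h (orange) and 24 h (purple); grey lines join the 10 h and 24 h means. The 10 h and 24 h points of each gene do not overlap, and 24 h replicate 3 of AT1G30870 (6.88) and EXPA7 (6.17) lies nearest to the 10 h arrays.

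Of the 15 largest falls past the threshold without overlap between the arrays, 3 were of class III peroxidase genes and 1 was of EXPA7, from the list of root hair genes. Class III peroxidases are secreted enzymes that loosen or cross-link cell walls through reactive oxygen. Of 55 measured genes of this family 4 fell and 1 rose, with a median difference of -0.06, beside 123 falls, 85 rises and a median of 0.00 for all 13350 genes. AT1G30870, a class III peroxidase, read 8.08, 8.04 and 8.53 at 10 h and 5.50, 5.87 and 6.88 at 24 h. This was the largest fall of a named gene, 4.38-fold (difference -2.13, SE 0.28, limma adjusted p = 0.00182). The mock arrays had read 5.56, 4.96 and 5.61, so that 24 h replicate 1 lay within their range and replicates 2 and 3 above it. AT4G26010, of the same family, read 5.81, 6.07 and 6.37 at 10 h and 4.13, 4.28 and 4.73 at 24 h, a difference of -1.70 (limma adjusted p = 0.000474). AT3G49960 fell from 6.23 ± 0.08 to 4.84 ± 0.30 (SD, n = 3 each) and AT5G15180, a dim gene, from 4.34 ± 0.35 to 3.44 ± 0.29. The gene that rose, AT2G43480, named after its values were seen, went from a mean of 7.48 to 8.03 (limma adjusted p = 0.0281). The peroxidases that passed were thus not all of 1 direction, although the falls were the larger. At an unadjusted p under 0.05, 13 of the family were lower and 2 higher. Of the 55 genes 37 read lower, beside 6567 of all 13350. Without 24 h replicate 3 the family had 7 falls and 1 rise, and without each other array 3 or 4 falls and 0 rises.

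EXPA7 and EXPA18, expansins that are used as markers of root hair cells, fell beside the peroxidases. Expansins are wall proteins that let cell walls yield during growth. EXPA7 read 6.62, 6.82 and 7.02 at 10 h and 4.73, 5.29 and 6.17 at 24 h, a 2.69-fold fall (difference -1.43, SE 0.26, limma adjusted p = 0.0134). EXPA18 read 6.04, 6.07 and 6.30 at 10 h and 4.69, 4.84 and 5.79 at 24 h (difference -1.03, limma adjusted p = 0.0205). In both genes 24 h replicates 1 and 2 were back in or near the mock range of 4.67 to 5.04 (EXPA7) and 4.81 to 4.93 (EXPA18), and replicate 3 lay between that range and the 10 h arrays. AT2G41970, the receptor-like cytoplasmic kinase known as MARIS that root hairs need to keep their shape, fell from 7.14 ± 0.10 to 5.97 ± 0.33 (SD, n = 3 each; difference -1.17, limma adjusted p = 0.00967). The list of epidermis and root hair genes had 5 measured members. Of these EXPA7 and EXPA18 fell and 0 rose in limma (1 read higher at an unadjusted p under 0.05), beside 0.921% that fell over all genes. The median was -0.12 and the highest difference 0.22. With each array left out in turn 0 to 2 of the 5 fell. In bulk root tips, fewer root hair cells and less of these RNAs per cell cannot be told apart. The call on EXPA7 ended without 10 h replicate 2, 10 h replicate 3 or 24 h replicate 2 (adjusted p 0.0503 to 0.0738), and that on AT2G41970 without 10 h replicate 1, 10 h replicate 3 or 24 h replicate 2 (0.0513 to 0.0593). EXPA18 kept its call without 24 h replicate 3 alone (adjusted p 0.0625 to 0.1 without each other array). AT5G15180 lost it without 10 h replicate 3 or 24 h replicate 2 (0.0596 and 0.0684).

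Single genes of other wall families passed, beside 1.56% of all genes. Of 19 measured expansin genes, 2 fell (EXPA7 and EXPA18) and 1 rose: EXLA2, an expansin-like gene, read 7.15, 6.93 and 7.11 at 10 h and 7.93, 7.67 and 7.59 at 24 h (difference 0.67, limma adjusted p = 0.00465). Its mock arrays had read 7.66, 7.68 and 7.52, and 6 h had brought the mean down to 6.54, so that its 24 h level lay near that of the mock arrays. Of 24 TBL genes, which encode wall polysaccharide acetyltransferases, 1 fell (4 without 24 h replicate 3, and 0 without each of the others). This was TBL19, from 6.53 ± 0.12 to 5.92 ± 0.05 (SD, n = 3 each; limma adjusted p = 0.0286). None of 10 xyloglucan endotransglucosylase genes passed in limma (2 at an unadjusted p under 0.05), and 9 read lower, with a median of -0.10. Without 24 h replicate 3, 2 of them passed as lower and the median was -0.06. The 15 GH9 cellulases also gave 0 calls in limma, and 3 at an unadjusted p under 0.05. GH9C1, a cellulase gene of root hairs, read 6.05, 5.49 and 6.19 at 10 h and 3.88, 3.99 and 5.44 at 24 h (difference -1.47, limma adjusted p = 0.0515, and 0.00132 without 24 h replicate 3). GH9B6 had the opposite sign, with 0.56 (limma adjusted p = 0.0588, and 0.0115 without 24 h replicate 3). HRGP1, an extensin gene, read 6.04 and 6.18 on 24 h replicates 1 and 2 and 7.64 on replicate 3, the last above all 3 arrays at 10 h (7.27 to 7.40). Its difference was -0.73 (limma adjusted p = 0.314), and -1.24 without that array (0.0103). RALFL32, a gene of a secreted signal peptide of the RALF family, which acts on wall-sensing receptor kinases, was the 1 of 15 RALF and receptor genes to pass, with -0.48 (limma adjusted p = 0.0188). The call on TBL19 ended without any array other than 24 h replicate 3 (0.0649 to 0.127), and that on RALFL32 without any 10 h array or 24 h replicate 2 (0.0565 to 0.0826).

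The dehydration and cold genes LTI30, COR47, AT1G54410 and COR27 fell. Dehydrins and late embryogenesis abundant proteins are hydrophilic proteins that protect cells that lose water, and many of their genes respond to abscisic acid, salt or cold. The list of these genes also takes in COR27, which is not named as one of these proteins and is counted among the falls. Of its 17 measured genes 4 fell and 0 rose in limma (5 and 1 at an unadjusted p under 0.05). This was beside 0.921% that fell and 0.637% that rose over all genes, and 13 of the 17 read lower. With each array left out in turn 1 to 4 of them fell. LTI30, a dehydrin, read 10.37, 10.24 and 10.37 at 10 h and 9.67, 9.61 and 9.41 at 24 h (difference -0.76, limma adjusted p = 0.00932). The mock arrays had read 9.10, 9.32 and 9.34, so that the 24 h arrays remained slightly above them. COR47, another dehydrin, fell from 11.01 ± 0.12 to 10.47 ± 0.27 (SD, n = 3 each; difference -0.54, limma adjusted p = 0.0439). AT1G54410, the small dehydrin HIRD11 and the brightest of these genes, fell from 12.15 to 11.68 on average. COR27, a cold-regulated gene whose protein represses clock genes, read 4.38, 4.12 and 4.07 at 10 h and 3.57, 3.52 and 3.72 at 24 h, within the range of the mock arrays (3.51 to 3.72). It was also the 1 call among 4 clock and cold-linked genes, and so is counted in both lists. The call on COR47 ended without any array other than 24 h replicate 3 (adjusted p 0.0937 to 0.176), and with median-centred arrays (0.088). LTI30 lost its call without 10 h replicate 1 or 10 h replicate 3 (0.0515 and 0.0568), and COR27 without 10 h replicate 1 or 24 h replicate 2 (0.0644 and 0.0669).

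AT1G13930, a locus with no symbol that is in none of the lists, also fell from a raised level. It read 9.03, 8.99 and 9.12 at 10 h and 7.18, 7.30 and 7.48 at 24 h, a 3.31-fold fall (difference -1.73, SE 0.16, limma adjusted p = 9.04e-05). It had started from 5.61, 6.01 and 6.39 on the mock arrays and reached a mean of 8.18 at 6 h. At 24 h it was still 1.31 above mock (limma adjusted p = 0.000779). The fall therefore took back part of the earlier rise, with no overlap between any 2 of the 3 groups.

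WRKY53, AT4G36500 and AT2G44380 also fell. WRKY53 encodes a transcription factor of leaf senescence and defence, and read 5.57, 5.46 and 6.36 at 10 h and 4.68, 4.77 and 4.57 at 24 h (difference -1.12, limma adjusted p = 0.0364). It was the 1 of 7 WRKY genes to pass, beside 1.56% of all genes. Its call ended without any 1 of the 6 arrays (0.0503 to 0.139). AT4G36500 fell from 7.27 ± 0.19 to 5.80 ± 0.09 (SD, n = 3 each; limma adjusted p = 0.0101), with mock arrays that ranged from 5.55 to 6.90. Without 10 h replicate 3 its adjusted p was 0.0641. AT2G44380 fell by 1.41 on the log2 scale (limma adjusted p = 0.0277, and 0.0683 to 0.117 without any array other than 24 h replicate 3).

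**Figure D3:**
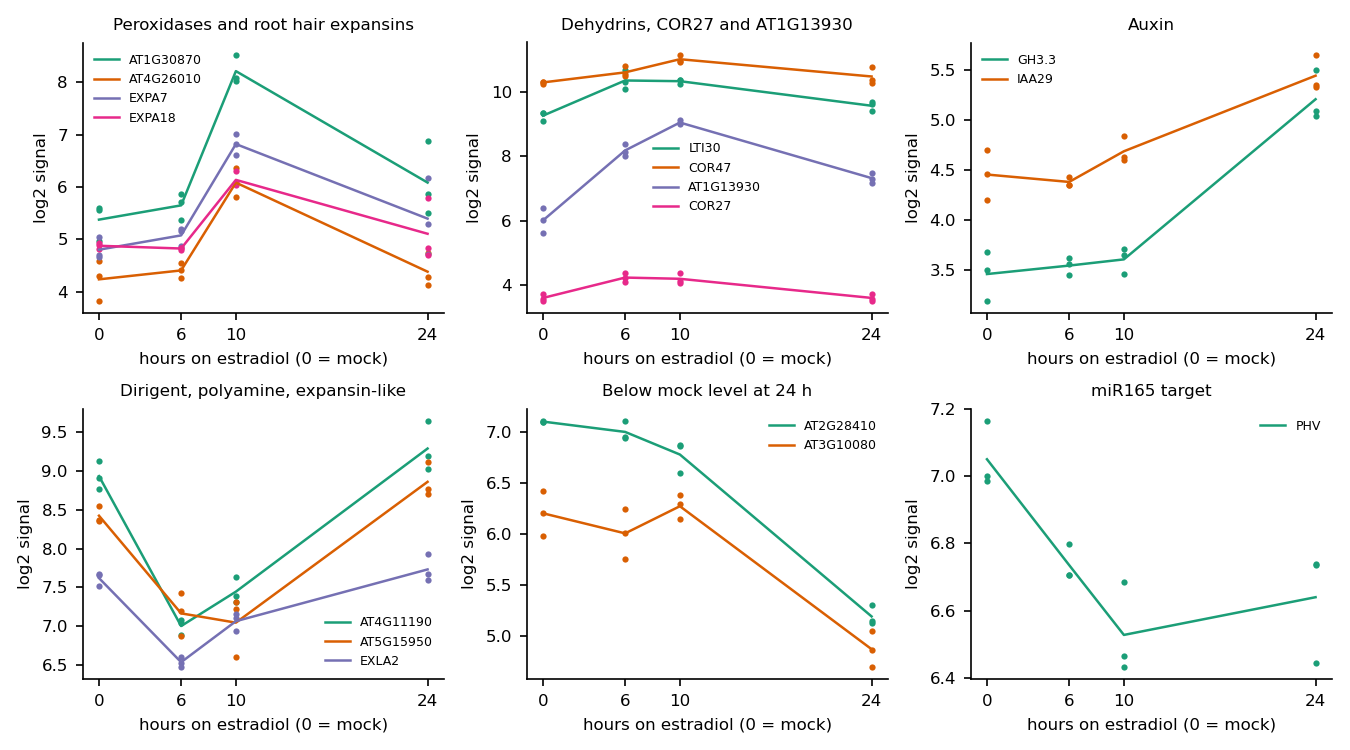
Log2 signal (vertical axis) against hours on estradiol (horizontal axis, 0 being the mock plates) for genes of 6 groups; points are arrays and lines join the means of 3. AT1G30870 peaks at 8.22 at 10 h and is at 6.08 at 24 h, GH3.3 stays near 3.6 until 10 h and is at 5.21 at 24 h, and AT2G28410 is at 6.78 and then 5.19.

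A few genes fell below their mock level. AT2G28410, a locus with no symbol, read 6.86, 6.87 and 6.60 at 10 h and 5.12, 5.30 and 5.15 at 24 h, a 3-fold fall with the smallest adjusted p among the falls named (difference -1.58, SE 0.09, limma adjusted p = 1.79e-06). Its mock arrays had read 7.09, 7.11 and 7.10, so that the 24 h arrays were 1.91 below them (limma adjusted p = 7.29e-08). AT3G10080, a gene of the cupin family of barrel-shaped proteins, read 6.29, 6.14 and 6.38 at 10 h and 4.70, 5.05 and 4.86 at 24 h (difference -1.40, limma adjusted p = 0.000162). Its 10 h arrays lay within the mock range of 5.98 to 6.42, and its 24 h arrays were 1.33 below the mock mean (limma adjusted p = 0.00021). AT1G69080 went from 6.25 ± 0.16 to 4.97 ± 0.35 (SD, n = 3 each; difference -1.27), and was 0.76 below mock at 24 h (limma adjusted p = 0.0459). By contrast, the peroxidase genes AT1G30870, AT4G26010 and AT3G49960 had 24 h means above their mock means, by 0.71, 0.15 and 0.75. None of these differences from mock passed (limma adjusted p = 0.36, 0.858 and 0.0939). The calls on them from 10 h to 24 h held without any 1 of the 6 arrays.

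The 15 largest falls past the threshold held 4 further genes. AT1G72230, a cupredoxin (a small copper protein), went from 6.38 ± 0.25 to 4.89 ± 0.31 (SD, n = 3 each; limma adjusted p = 0.000982). AT3G13650, a dirigent protein gene, read 7.51, 7.56 and 7.65 at 10 h and 6.82, 6.40 and 6.08 at 24 h (difference -1.13, limma adjusted p = 0.00379). Dirigent proteins steer the coupling of phenolic radicals into lignans and lignin. AT3G51330, of the aspartyl proteases, fell by 1.25 on the log2 scale (limma adjusted p = 0.0111, and 0.0584 and 0.0641 without 10 h replicate 1 or 10 h replicate 3). AT1G19900 read 6.41, 5.92 and 6.52 at 10 h and 4.41, 4.67 and 5.76 at 24 h, with replicate 3 again nearest the 10 h arrays (limma adjusted p = 0.0403, and 0.0646 to 0.155 without any array other than that one).

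Single genes of the plastid genome, photosynthesis and transport passed with smaller differences. Of 69 genes encoded in the plastid genome 4 fell and 0 rose in limma (11 and 1 at an unadjusted p under 0.05), and 51 of the 69 read lower, with a median of -0.12. Over all 13350 genes 0.921% fell and 6567 read lower. With each array left out in turn 0 to 3 of the 69 fell, and the median was -0.04 without 24 h replicate 3. The average of the 69 genes was 7.17, 7.18 and 7.03 on the 10 h arrays and 7.05, 7.08 and 6.88 on the 24 h arrays, so that the groups overlapped. The 4 were psbK and psaJ, of the photosystems, and rpl33 and rps18, of the plastid ribosome. psbK read 8.21, 8.38 and 8.35 at 10 h and 7.88, 7.70 and 7.76 at 24 h (difference -0.53, limma adjusted p = 0.00805). The others differed by -0.48 (psaJ), -0.42 (rpl33) and -0.50 (rps18). With median-centred arrays 2 of the 4 passed, rpl33 and rps18 having adjusted p of 0.0656 and 0.105. LHCB4.1, a nuclear gene of the light-harvesting antenna, read 6.06, 5.95 and 6.27 at 10 h and 5.59, 5.54 and 5.13 at 24 h (difference -0.67, limma adjusted p = 0.0205), and was the 1 of 8 photosynthesis genes to pass. The call on psbK ended without 10 h replicate 3 (0.0524) and that on psaJ without 10 h replicate 2, 10 h replicate 3 or 24 h replicate 2 (0.0676 to 0.0755). LHCB4.1 lost its call without 10 h replicate 1 or 10 h replicate 3 (0.071 and 0.105), rps18 without any array other than 24 h replicate 3 (0.0655 to 0.18) and rpl33 without any 1 of the 6 (0.0621 to 0.173). GTR1, a transporter of glucosinolates, read 7.61, 7.62 and 7.85 at 10 h and 6.90, 7.04 and 6.94 at 24 h, in or just above its mock range of 6.84 to 7.01 (difference -0.73, limma adjusted p = 0.00103). AT2G26690 (NPF6.2), of the same transporter family, also fell, by 0.73 on the log2 scale (limma adjusted p = 0.0494), and AT3G21670 (NPF6.4) rose by 0.63 (limma adjusted p = 0.0326). AT2G26690 lost its call without any array other than 24 h replicate 2 (0.072 to 0.176), and AT3G21670 without any other than 24 h replicate 3 (0.0524 to 0.109). These were the 3 calls among 36 genes of nitrate, phosphate, sulfate and iron nutrition, beside 1.56% called over all genes. CYP71B34, a dim cytochrome P450 gene, fell by 0.46 on the log2 scale (limma adjusted p = 0.0238, and 0.0579 with median-centred arrays), and its call ended without any array other than 24 h replicate 3 (0.0644 to 0.105).

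None of 11 autophagy genes passed in limma, although 10 of the 11 read lower, 7 of them at an unadjusted p under 0.05, and their median was -0.28. Autophagy delivers parts of the cell to the vacuole, and its ATG8 proteins coat the forming membrane. ATG8F read 7.85, 7.80 and 7.98 at 10 h and 7.28, 7.31 and 7.40 at 24 h (difference -0.55, limma adjusted p = 0.0504). For ATG8E the difference was -1.07 (limma adjusted p = 0.0803). Without 24 h replicate 3 both were past the threshold (0.0451 and 0.0477).

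AT4G11190 and AT5G15950, with the largest rises among the genes named, had been lower at 10 h than on the mock arrays. AT4G11190, a dirigent protein gene, read 7.31, 7.38 and 7.64 at 10 h and 9.65, 9.19 and 9.03 at 24 h, a 3.59-fold rise (difference 1.85, SE 0.14, limma adjusted p = 3.07e-05). Its mock arrays had read 9.12, 8.77 and 8.91 and its 6 h mean was below that at 10 h, so that the 24 h arrays lay at the mock level again. AT5G15950, which encodes an S-adenosylmethionine decarboxylase of polyamine synthesis, read 7.31, 7.22 and 6.60 at 10 h and 9.12, 8.76 and 8.70 at 24 h, a 3.52-fold rise (difference 1.82, SE 0.18, limma adjusted p = 0.000162). It too had come down from a mock mean of 8.42 to 7.16 at 6 h. SAMDC, a related and brighter gene, had a difference of 0.26 (limma adjusted p = 0.126). Both dirigent genes among the largest changes thus moved in opposite directions, AT4G11190 up and AT3G13650 down.

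Genes of auxin response gave 2 of the largest rises. Aux/IAA genes encode repressors of auxin signalling and GH3 genes encode enzymes that attach amino acids to auxin or jasmonate, and many of both families are switched on by auxin within minutes. GH3.3 read 3.46, 3.65 and 3.71 at 10 h and 5.09, 5.04 and 5.50 at 24 h, a 3.03-fold rise (difference 1.60, SE 0.14, limma adjusted p = 4.47e-05). On the mock and 6 h arrays it had been as dim as at 10 h, with means of 3.46 and 3.55. IAA29 read 4.84, 4.60 and 4.63 at 10 h and 5.65, 5.33 and 5.35 at 24 h (difference 0.76, limma adjusted p = 0.00805, and 0.0524 without 10 h replicate 3). Each was the sole call in its list, of 5 GH3 genes with symbols and 7 Aux/IAA genes, beside 1.56% called over all genes. The 7 Aux/IAA genes ranged from -0.39 to 0.76 with a median of 0.00, so that IAA29 was not accompanied by the others. AT1G23160, a GH3 family gene that is in neither count, read 6.46, 6.67 and 6.37 at 10 h and 7.31, 7.41 and 6.94 at 24 h (difference 0.72, limma adjusted p = 0.0205). Unlike GH3.3 it had started high, at 8.13, 8.30 and 7.83 on the mock arrays, and was 0.86 below them at 24 h (limma adjusted p = 0.0101). Its call ended without 10 h replicate 1, 10 h replicate 3, 24 h replicate 1 or 24 h replicate 2 (0.0644 to 0.103). None of 6 genes of auxin synthesis and transport passed in limma, and 2 had an unadjusted p under 0.05.

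Among genes for making ribosomes 18 of 63 measured rose, by small amounts. Ribosomal RNA is transcribed by RNA polymerase I in the nucleolus and is cut, modified and folded there by a large set of assembly factors. The list of these factors was drawn up after several had been seen among the rises, and so it gets no test. Of its 63 measured genes 18 rose and 0 fell in limma (50 and 0 at an unadjusted p under 0.05), and 61 read higher, with a median of 0.29, beside 85 rises among all 13350 genes (0.637%) and a median of 0.00. The count moved with single arrays and was 7, 5 and 2 when replicates 1, 2 and 3 of the 10 h group were left out in turn, and 6, 6 and 19 for those of the 24 h group, in the same order, while the median stayed between 0.28 and 0.34. With median-centred arrays 16 rose. The 45 that did not pass had a median of 0.25, and 43 of them read higher. The average of the 63 genes was 9.34, 9.34 and 9.25 on the 10 h arrays and 9.70, 9.62 and 9.56 on the 24 h arrays, without overlap. Because the list was drawn up from rises already seen, this adds no support. The averages of the peroxidase, root hair, autophagy and dehydrin lists, which were lower at 24 h, did not overlap either.

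**Figure D4:**
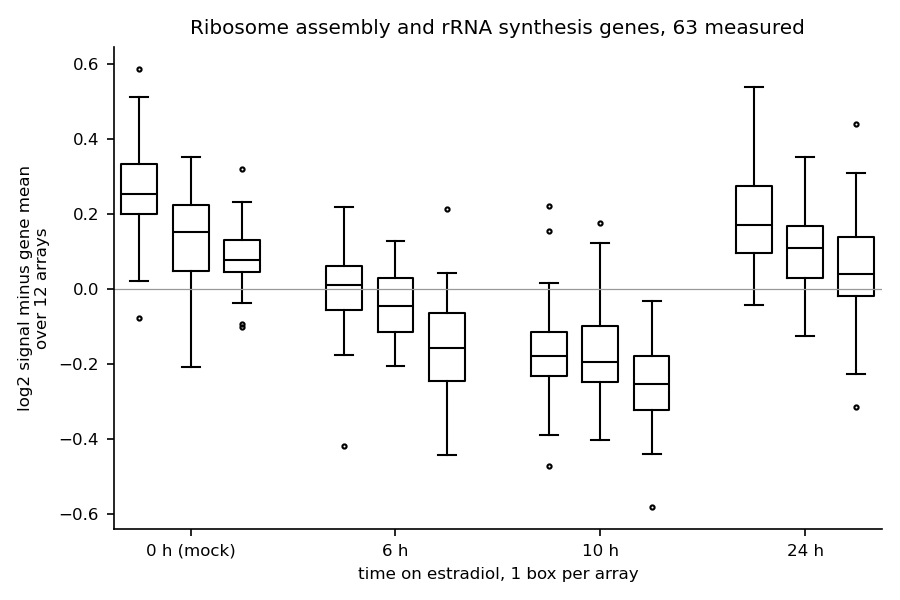
Log2 signal of 63 genes of ribosome assembly and rRNA synthesis, each minus its own mean over the 12 arrays (vertical axis), 1 box per array in 4 time groups; boxes span the middle 50% of genes, the line is the median, whiskers reach to 1.5 times the box height and circles lie beyond. The 3 boxes at 10 h lie lowest and those at 24 h are near the mock ones.

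The same genes had been higher on the mock arrays, where their average ran from 9.60 to 9.77, and lower at 6 h, from 9.36 to 9.52. Their median difference from mock was -0.35 at 10 h and -0.04 at 24 h, from comparisons that share arrays. AT3G06530, the member with the smallest adjusted p, read 9.13, 9.30 and 9.32 at 10 h and 9.84, 9.69 and 9.76 at 24 h (difference 0.52, SE 0.08, limma adjusted p = 0.00562), with mock arrays at 9.86, 9.91 and 9.83. AT3G10530 and AT4G04940 had the largest differences among the members that passed, both 0.58 (limma adjusted p = 0.00805 and 0.0113). RBL (REBELOTE) read 9.08, 9.01 and 9.07 at 10 h and 9.68, 9.68 and 9.47 at 24 h (difference 0.56, limma adjusted p = 0.01). YAO, a nucleolar protein that embryos need, rose by 0.46 (limma adjusted p = 0.0262). NRPA2, the second largest subunit of RNA polymerase I, read 9.03, 9.01 and 8.98 at 10 h and 9.41, 9.38 and 9.33 at 24 h (difference 0.36, limma adjusted p = 0.0378). In each of these genes the 3 arrays at 24 h lay above the 3 at 10 h. The ranges were likewise apart in all 407 calls, and in 20.6% of all probe sets, so that this adds nothing to the calls. AT3G06530 passed in each of 6 fits that leave out 1 array and NRPA2 in 1 of the 6.

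The ribosomal proteins themselves did not follow as a group. Of 124 genes for cytosolic ribosomal proteins 2 rose and 0 fell in limma (10 and 1 at an unadjusted p under 0.05). This was beside 0.637% that rose and 0.921% that fell over all genes. Of the 124, 72 read higher and 52 lower, and the median was 0.02. The 2 that rose in limma were AT5G59240 and AT5G39850, of the small subunit. AT5G59240 read 9.11, 9.31 and 9.26 at 10 h and 9.89, 9.81 and 9.66 at 24 h (difference 0.56, limma adjusted p = 0.00746). For AT5G39850 the values were 8.21, 8.30 and 8.06, then 8.93, 8.73 and 8.88 (difference 0.66, limma adjusted p = 0.0083, and 0.0593 without 10 h replicate 3). Ribosomal protein genes come in near-identical copies, so that a probe set may also detect RNA of a copy. AT5G12110, which encodes a subunit of translation elongation factor EF1B, rose by 0.70 (limma adjusted p = 0.0104, and 0.0563 without 10 h replicate 2). Hsp70-2, a cytosolic chaperone, read 8.63, 8.67 and 8.62 at 10 h and 9.46, 9.22 and 9.45 at 24 h, near its mock arrays of 9.07 to 9.36 (difference 0.74, limma adjusted p = 0.00182).

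Cell cycle genes had small differences that did not pass. All 4 measured S phase genes read higher at 24 h, with a median of 0.26, and 0 of 4 passed in limma (2 at an unadjusted p under 0.05). POLA3 and PRL, of DNA replication, each had a difference of 0.30 (limma adjusted p = 0.118 and 0.126), and PRL read 9.52, 9.41 and 9.34 at 10 h and 9.64, 9.75 and 9.76 at 24 h. Of 9 genes of G2 and M phase 7 read higher, with a median of 0.08, 0 calls in limma and 1 gene at an unadjusted p under 0.05. Among them the spindle checkpoint gene BUB3.1 read 9.24, 9.20 and 9.23, then 9.38, 9.54 and 9.50 (limma adjusted p = 0.148). The 7 histone genes had a median of 0.15, 0 calls in limma and 3 at an unadjusted p under 0.05, and HTB1, a histone H2B gene, had the smallest adjusted p of them (difference 0.35, limma adjusted p = 0.0704). The 10 h and 24 h arrays did not overlap for PRL, BUB3.1 or HTB1, as in 20.6% of all probe sets.

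The other rises came from genes of several kinds. AT2G27740 and AT5G26330, the second of the cupredoxins, were higher at each of these times: AT2G27740 had means of 4.21 at 0 h, 4.90 at 10 h and 5.67 at 24 h (last step 0.78, limma adjusted p = 0.00476), and AT5G26330 had 3.95, 4.57 and 5.26 (0.69, limma adjusted p = 0.00771). AT4G27435 was level until 10 h, with means of 5.60 and 5.58, and rose to 6.31 (limma adjusted p = 0.00379). AT5G39220 rose in the same step from 4.80 ± 0.05 to 5.54 ± 0.18 and AT1G76470 from 6.91 ± 0.13 to 7.73 ± 0.04 (SD, n = 3 each). AT5G18840, of the sugar transporters, read 5.39, 5.92 and 5.60 at 10 h and 6.54, 6.40 and 6.66 at 24 h, -0.24 from its mock mean (difference from 10 h 0.90, limma adjusted p = 0.0143). AT1G62500 (0.68, limma adjusted p = 0.0385) and AT5G05180 (0.70, limma adjusted p = 0.0466) also passed. UGT76B1, which attaches glucose to a defence regulator, rose by 0.61 (limma adjusted p = 0.0481). It was the 1 call among 51 UDP-glycosyltransferase genes, beside 1.56% called over all genes. Its call ended without any 1 of the 6 arrays (0.0521 to 0.174). Those on AT1G76470 (0.0551 to 0.0864) and AT5G05180 (0.071 to 0.17) ended without any array other than 24 h replicate 3. AT5G39220 (0.056 to 0.082) and AT1G62500 (0.0694 to 0.129) lost theirs without any 10 h array or 24 h replicate 1, and AT5G18840 without 10 h replicate 1 or 10 h replicate 3 (0.0691 and 0.0764).

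Probe sets with no single gene in the annotation gave 197 of the 407 calls. The probe set 261569_at read 4.54, 4.66 and 4.63 at 10 h and 6.71, 6.12 and 6.14 at 24 h (difference 1.71, limma adjusted p = 0.000629), back at its mock values of 6.73, 6.28 and 6.06. The opposite course was seen in 255632_at, with 5.70, 5.96 and 6.22 at 10 h and 3.50, 3.92 and 4.54 at 24 h (difference -1.97, limma adjusted p = 0.000647).

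Across all the lists, 49 had a measured member and 17 had a call. The plot of gene lists shows most medians within 0.2 of 0, with the ribosome assembly genes at one end and the autophagy genes at the other. Most lists match genes by symbol or synonym, so that families whose members carry only locus numbers are counted in part; the peroxidase, ribosomal protein and ribosome assembly lists are by locus number and the plastid list by chromosome. Other lists with 0 calls in limma included the cellulose synthase family (1 of 11 genes at an unadjusted p under 0.05), glutathione transferases (2 of 13), signal peptides such as CLE (4 of 19), cytokinin genes (0 of 6) and genes of sugar starvation and transport (2 of 18).

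**Figure D5:**
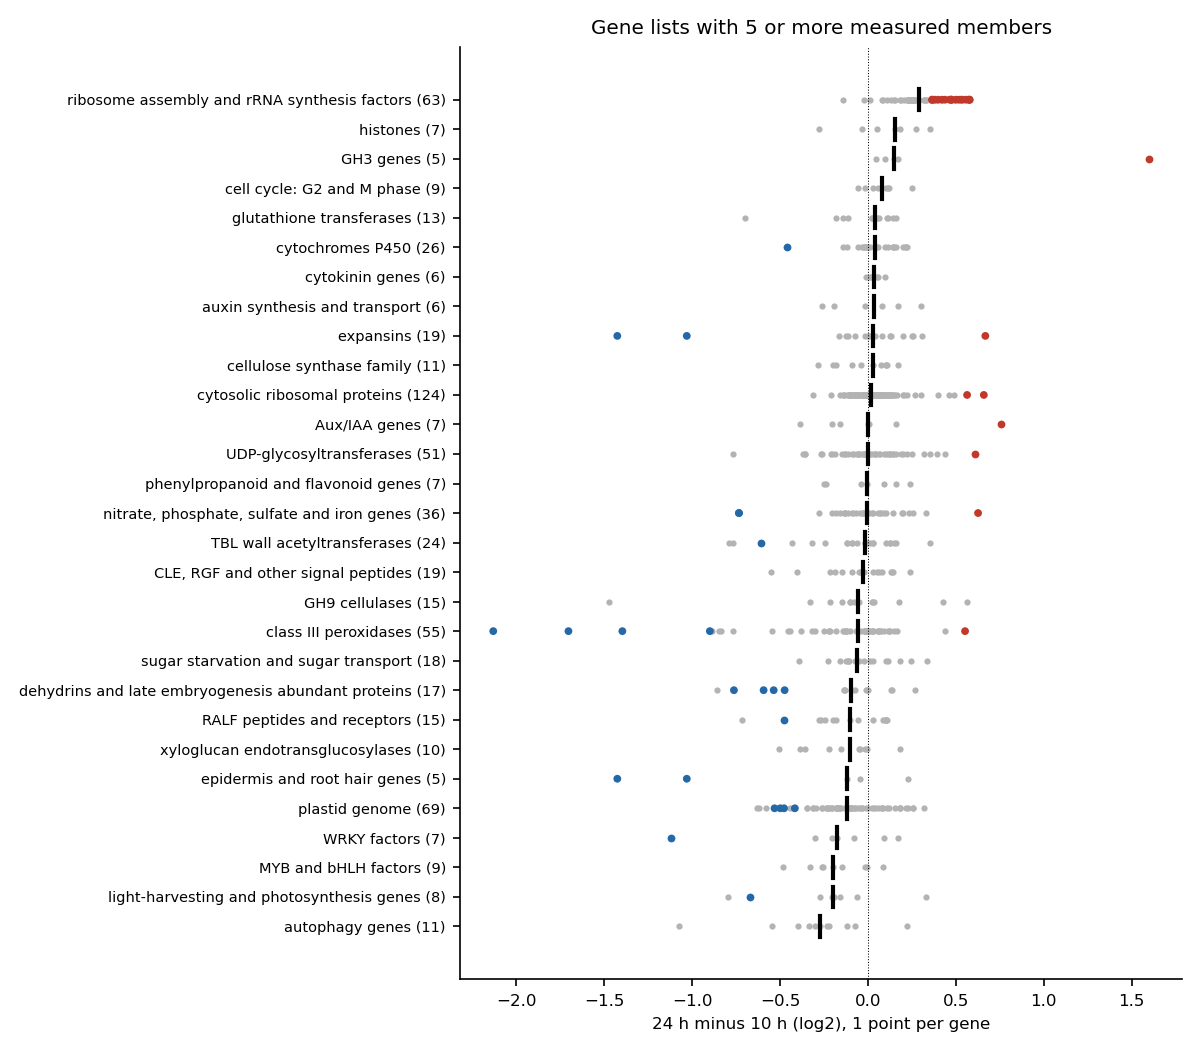
Difference between 24 h and 10 h (horizontal axis, log2) for the members of each gene list with 5 or more measured genes (number in brackets), 1 point per gene, red for rises and blue for falls past a limma adjusted p of 0.05, grey for the rest; black bars are medians. The median of ribosome assembly and rRNA synthesis factors is 0.29 and that of autophagy genes -0.28.

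The miR165 target PHV was the HD-ZIP III gene with a probe set of its own. It read 6.43, 6.47 and 6.68 at 10 h and 6.74, 6.74 and 6.44 at 24 h, so that the groups overlapped (difference 0.11, SE 0.10, limma adjusted p = 0.659). Its mock arrays had read 6.99 to 7.16, above all 6 of these. Of 26 marker genes of root tip tissues, 7 had a probe set of their own. Besides EXPA7 and EXPA18 none of the 7 passed in limma. GSO1, a receptor kinase of the endodermis barrier, differed by -0.50 (limma adjusted p = 0.149), UPB1, a regulator of peroxidases at the transition zone, by -0.39 (0.407) and OPS, of the phloem, by 0.24 (0.165). UPB1 was the brightest of these 3, at 9.13, 9.15 and 9.18 at 10 h and 8.74, 8.64 and 8.91 at 24 h. Its groups did not overlap, as in 20.6% of all probe sets. EXPA7 and EXPA18 fell while the other markers measured did not pass, and the part of tissue makeup in the result was not tested.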

How the data were processed

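RNA of 12 root tip samples was labelled with biotin (250 ng each, per the labels' protocols) and hybridised to Affymetrix ATH1 arrays. The deposited values are log2 signals made by the authors with Affymetrix Expression Console and RMA, with limma also named, per the submitters' processing notes; versions are not given in the sources used here. RMA pulls low signals together and so understates changes of dim genes. All 12 columns were used as deposited and 64 control probe sets were left out.

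A linear model with 4 group means was fitted to 22746 probe sets with limma 3.58.1 in R 4.3.3 (lmFit, contrasts, eBayes), and p-values were adjusted by Benjamini-Hochberg over all probe sets, with a threshold of 0.05. The 4 groups share 1 estimate of the spread. Every adjusted p in the text is from such a fit, and an adjusted p "without" an array is from the same fit with that array left out. Probe sets were named through the platform annotation (13513 with a single gene, 503 with several, 8730 with none) and RefSeq, in which 13436 matched. A gene is represented by its probe set with the highest mean over the 12 arrays.

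The genes named are PHV, the 15 largest falls and 15 largest rises past the threshold whose arrays do not overlap, and up to 4 called or 2 other members of each gene list. The members and lists were chosen with earlier results of these data known. Peroxidase, ribosomal protein and ribosome assembly genes were listed by locus number, and plastid genes by chromosome, after the annotation was seen; ribosome assembly genes named here fall outside the rule. In simulated data for this contrast (22746 probe sets), limma recovered 65.7% of 67 probe sets changed by 0.5, and 100% of 67 changed by 1 and of 66 changed by 2, with 9 false calls. The simulated noise was independent between probe sets and had the same spread on all arrays. The real spread differed between 10 h and 24 h, so these rates may not hold for the real arrays.

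The labels give 3 biological replicates a group. Same-numbered arrays of 10 h and 24 h had correlated deviations of 0.11, -0.08 and 0.04. Over all 4 groups the values ran from -0.10 to 0.28 for same-numbered arrays and from -0.26 to 0.16 for the others. Such values cannot show whether the numbers pair the samples, and the main fit used no pairing. The number of arrays limits the precision. Alternatives tried were 2 scalings, leaving out dim probe sets (mean under 5), other variance settings, array weights, fewer groups, a replicate block, a 1.5-fold minimum and each array left out.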

Additional observations from a re-analysis of the deposited data

How the results depend on the processing

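The count of 407 probe sets (165 higher, 242 lower) became 591 (303 and 288) with arrays quantile normalized again, 685 (324 and 361) with trend and robust moderation, 2068 (1015 and 1053) with array weights, 280 (86 and 194) with the 6 arrays of 10 h and 24 h alone, and 184 (45 and 139) with a 1.5-fold minimum. Array weights gave 24 h replicate 3 the lowest weight, 0.344. With the replicate number as a block there were 646 (249 and 397), and it is not known whether the numbers pair the samples. With median-centred arrays there were 411 (218 and 193), without dim probe sets 477 (227 and 250), and with the 9 induced arrays 443 (158 and 285). Leaving out 1 array at a time gave 93 to 799 calls, 39 to 388 higher and 54 to 411 lower.

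Among the 52 named genes that were called, 574 of 717 values under 14 alternatives were still past the threshold and 143 were not. The sign changed in 0 of the 717. Leaving out or weighting arrays could not have changed it, since the 10 h and 24 h arrays of these genes do not overlap. Under each alternative in which they had a value 20 genes passed, 5 of these having none once dim probe sets were left out. Without 10 h replicate 3, 30 of the 52 were lost, and without 24 h replicate 3, 4. The cause was not tested. Signals under 5, which hold 40.1% of probe sets, limit what can be said of dim genes.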
